A study of Mus musculus with 21 samples.

Results

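The interferon-stimulated genes described here are 56 named genes, taken as a list and matched by symbol to the gene names deposited with the expression values. All 56 were matched, and all 56 were among the 15300 of 47643 genes with at least 10 counts over the 21 libraries. They were split into 44 type I-like genes, such as the Ifit, Oas and Isg families, and 12 GTPase genes of the guanylate-binding protein (Gbp) and immunity-related GTPase (Irg) families. The rule for membership uses gene names alone, although the list was proposed with earlier results of these data known.

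Splenic CD4+ T cells were flow sorted from mice of the strain Tg4 Tiger Nr4a3-Tocky, and their RNA was read from the 3′ ends of transcripts with QuantSeq libraries. All 7 groups shared this genotype: a transgenic T cell receptor for a peptide of myelin basic protein (MBP), a fluorescent Timer protein driven by Nr4a3 that matures from blue to red, and a GFP reporter of Il10. The control group was untreated, and the other 6 groups received 0.8 µg or 80 µg of the [4Y] MBP peptide under the skin without adjuvant with sampling 4 h, 12 h or 24 h later. Each group had 3 samples, which the study's methods describe as replicate mice stained individually for sorting, mouse age is not given in the sources used here, and library totals ranged from 2352800 to 6244279 counts. The gate on Timer colour differed by time, being Blue+Red− for the 4 h cells, Blue+Red+ for those of 12 h and Blue−Red+ for those of 24 h, so time and sorting gate cannot be told apart, while the gate of the control cells is not given in the sources used here.

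Interferon-stimulated genes are switched on when interferons bind their receptors and JAK kinases activate STAT proteins. Type I interferons act mainly through the interferon-stimulated response element (ISRE), which is bound by a complex that holds STAT2 and IRF9, whereas interferon gamma acts mainly through the gamma-activated site (GAS). Many products of these genes restrict viruses, and the GTPases are best known for attacking vacuoles that hold intracellular pathogens and for their strong response to interferon gamma. T cells both make interferon gamma and respond to it.

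The promoters of the members were searched for letters of the ISRE and GAS type. RefSeq promoter windows of GRCm38.p6, which run from 250 bases before to 50 bases after a gene's start, were matched by symbol for 43 of the 56 members (34 type I-like and 9 GTPase genes). An ISRE-type match was GAAA, any 2 bases and GAAA again, on either strand, and a GAS-type match was TTCNNNGAA, where N is any base and the reverse strand reads the same. The ISRE letters stood in 46.2% of the 39 windows of type I-like genes and in 80% of the 10 windows of GTPase genes, against 3.44% of all 32851 windows. The GAS letters stood in 12.8% of type I-like windows and in 50% of GTPase windows, against 8.3% of all windows. Both motifs shared a window in 2 of 39 type I-like windows, in 5 of 10 GTPase windows and in 0.454% of all windows. Such a match is a description of letters and not evidence of a bound factor.

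The Irg genes Igtp, Irgm2 and Tgtp1 are shown first because the 2 motifs have a fixed arrangement in them. Each line gives 150 bases, from 130 before to 20 after the start, 5′ to 3′ on the strand of the gene, with matched letters in capitals.
Igtp: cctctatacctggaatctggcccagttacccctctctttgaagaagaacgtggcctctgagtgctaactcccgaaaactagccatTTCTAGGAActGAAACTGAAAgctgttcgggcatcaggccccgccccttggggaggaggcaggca
Irgm2: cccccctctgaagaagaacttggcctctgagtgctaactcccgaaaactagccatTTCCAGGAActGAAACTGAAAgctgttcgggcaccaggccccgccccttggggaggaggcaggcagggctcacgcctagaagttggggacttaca
Tgtp1: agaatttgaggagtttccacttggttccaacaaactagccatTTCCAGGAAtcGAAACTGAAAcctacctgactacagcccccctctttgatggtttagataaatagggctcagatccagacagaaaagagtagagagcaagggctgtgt
These lie, in GRCm38.p6, for Igtp at chr11:58199426-58199575 on the plus strand, for Irgm2 at chr11:58214847-58214996 on the plus strand and for Tgtp1 at chr11:48992227-48992376 on the minus strand. In all of them the GAS letters begin exactly 11 bases before the ISRE letters, and the ISRE begins 34 bases before the start in Igtp, 64 in Irgm2 and 77 in Tgtp1. Of all 32851 windows, 5 (0.0152%) had this spacing, those of Igtp, Irgm2, Tgtp1, Tgtp2 and Gm12185, a gene model that overlaps Tgtp1. The spacing counted was the one seen in these Irg genes, so their own place in the count was fixed in advance. Tgtp1 and Tgtp2 are near copies, so the windows are not independent. Gbp7, Gbp2 and Irgm1 are shown because they were among the members that differed most between doses.
Gbp7: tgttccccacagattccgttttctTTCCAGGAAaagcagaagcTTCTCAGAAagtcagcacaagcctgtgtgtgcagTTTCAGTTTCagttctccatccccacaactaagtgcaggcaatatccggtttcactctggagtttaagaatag
Gbp2: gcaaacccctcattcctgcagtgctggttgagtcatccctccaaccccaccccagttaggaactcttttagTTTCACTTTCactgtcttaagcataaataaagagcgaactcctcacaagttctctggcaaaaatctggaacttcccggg
Irgm1: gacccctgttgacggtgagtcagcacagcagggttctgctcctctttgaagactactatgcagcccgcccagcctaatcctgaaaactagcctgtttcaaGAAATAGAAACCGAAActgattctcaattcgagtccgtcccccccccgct
Their coordinates are, for Gbp7 at chr3:142530206-142530355 on the plus strand, for Gbp2 at chr3:142620533-142620682 on the plus strand and for Irgm1 at chr11:48871401-48871550 on the minus strand. Gbp7 holds 2 GAS-type matches upstream of an ISRE-type match on the opposite strand, whereas Gbp2 and Irgm1 hold ISRE-type matches alone. In Irgm1 the 2 ISRE-type matches overlap. Isg15 and Ifit1 are shown as type I-like genes with several ISRE-type matches and no GAS-type match in the window. They are not typical of the list, since 18 of 39 type I-like windows held an ISRE-type match.
Isg15: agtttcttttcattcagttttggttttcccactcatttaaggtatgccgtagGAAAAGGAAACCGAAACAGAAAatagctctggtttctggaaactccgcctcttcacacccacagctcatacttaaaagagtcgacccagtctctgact
Ifit1: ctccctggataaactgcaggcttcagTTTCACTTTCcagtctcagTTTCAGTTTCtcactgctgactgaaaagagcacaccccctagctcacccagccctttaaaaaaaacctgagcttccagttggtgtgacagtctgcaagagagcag
Their coordinates are, for Isg15 at chr4:156200799-156200948 on the minus strand and for Ifit1 at chr19:34640759-34640908 on the plus strand. Isg15 holds 3 overlapping ISRE-type matches that begin 78, 72 and 66 bases before the start, and Ifit1 holds 2 that begin 104 and 85 bases before it.

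The general course of the members was low at 4 h and 12 h and high at 24 h, apart from the GTPase genes at 4 h after 80 µg. The mean over the 44 type I-like genes of log2(CPM + 1), where CPM is counts scaled to a common library total, was 4.88 ± 0.19 (SD, n = 3) in the control. It was 2.92 ± 0.07 at 0.8 µg and 3.21 ± 0.22 at 80 µg at 4 h, 3.47 ± 0.42 and 3.46 ± 0.08 at 12 h, and 5.8 ± 0.65 and 6.09 ± 0.12 at 24 h. Every library of the 4 h and 12 h groups lay under every control library for this mean, and at 24 h replicate 3 of the 0.8 µg group (5.09) lay within the control range of 4.75 to 5.1. The summed level, which the most abundant members dominate, was 2840 ± 299 CPM in the control, 1310 ± 141 at 0.8 µg and 2780 ± 272 at 80 µg at 4 h. On this scale 80 µg lay within the spread of the control, and with TMM library sizes it was the higher of them (2920 ± 262 against 2620 ± 288).

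The mean over the 12 GTPase genes on the same scale was 4.84 ± 0.12 in the control. It was 3.31 ± 0.11 at 0.8 µg but 4.94 ± 0.3 at 80 µg at 4 h, then 3.41 ± 0.3 and 3.44 ± 0.24 at 12 h, and 5.61 ± 0.37 and 5.56 ± 0.06 at 24 h. The 3 libraries of 80 µg at 4 h read 5.2, 5.02 and 4.61 and overlapped the control range of 4.76 to 4.98, while those of 0.8 µg at 4 h lay between 3.22 and 3.44. These means describe lists chosen with results known and carry no test. In sorted populations, fewer cells with the transcripts and less RNA per cell cannot be told apart.

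**Figure D1:**
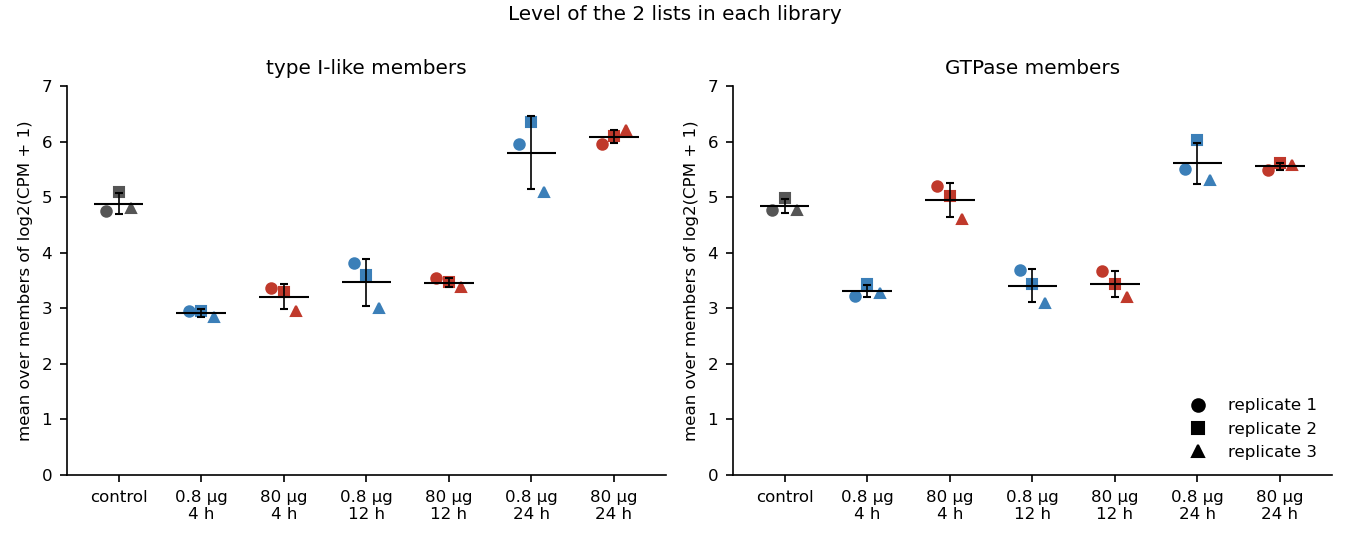
Mean over members of log2(CPM + 1) in each library (points, shaped by replicate; red 80 µg, blue 0.8 µg, grey control), with the group mean and SD (n = 3), for the type I-like genes on the left and the GTPase genes on the right. The GTPase mean of the 80 µg 4 h libraries, from 4.61 to 5.2, stands with the control, whereas the type I-like mean of the same libraries, from 2.96 to 3.37, lies well under the control and at or above the 0.8 µg libraries, at 2.84 to 2.96.

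Markers of other cells were read beside these levels. The 10 T cell markers summed to 3460 to 3700 CPM in the control, 1630 to 2220 at 4 h and 12 h, and 2680 to 3400 at 24 h. The 10 B cell markers also moved with time, from 405 to 476 CPM in the control to 34.6 to 100 at 4 h and 12 h and 286 to 411 at 24 h, and Ighm alone made up 332 to 358 of the control value. Without Ighm, the other 9 summed to 54.4 to 144 CPM in the control and to 4.07 to 54.6 in all immunised groups, 24 h included. The 8 dendritic cell markers summed to 19.6 to 27.4 CPM in the control, to at most 8.44 at 4 h and 12 h and to 2.44 to 42.5 at 24 h, with 4 of the 8 at 0 in all control libraries and 6 at 0 in all 80 µg 24 h libraries. The 11 macrophage and monocyte markers stayed between 20.5 and 70.6 CPM in all groups, and the 5 neutrophil markers did not exceed 3.84. The part of other cells in the results was not tested.

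To ask how immunised cells stood against untreated cells, every group given peptide was set against the control. A gene was called when its adjusted p was under 0.05 and its shrunken log2 fold change exceeded 1 in size. Shares of all tested genes given beside counts of called members use this rule. No such share is given for counts at an unadjusted p, with no fold change threshold or in other alternatives. The 6 comparisons share the same 3 control samples, so their values are given side by side.

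At 4 h the members were largely below the control. After 0.8 µg, 40 of 56 members fell and 1 rose, where 23.4% of all tested genes fell and 17.3% rose. After 80 µg, 30 fell and 5 rose, where 25.1% of all tested genes fell and 18.4% rose. The type I-like list gave 32 falls and 1 rise at 0.8 µg and 29 falls and 3 rises at 80 µg, with median log2 fold changes of -2.04 and -1.63 beside -0.13 and -0.15 over all tested genes. The GTPase list gave 8 falls and 0 rises at 0.8 µg and 1 fall and 2 rises at 80 µg, with medians of -1.52 and 0.56. At 0.8 µg DESeq2 had 0 GTPases higher at an unadjusted p under 0.05, and edgeR called 0.

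Among the RNA sensors, which detect viral RNA in the cytosol, Ddx60 and Ddx58 had lower log2 fold changes than Ifih1 and Dhx58 at both doses. Ddx60, a helicase of this group, read 220, 292 and 238 normalised counts in the control, 8.08, 9.22 and 9.71 at 0.8 µg and 8.1, 3.87 and 5.14 at 80 µg at 4 h. It fell, with log2 fold changes of -4.64 ± 0.36 (SE) at 0.8 µg and -5.25 ± 0.39 at 80 µg, and no 4 h library came near the control. Ddx58, which encodes RIG-I, went from 450 ± 29 (SD) in the control to 25.8 ± 7.73 and 10.9 ± 8.16, falls of 3.87 ± 0.48 and 5.01 ± 0.5. Ifih1, which encodes MDA5, fell by 1.36 and 1.28, and Dhx58, which encodes LGP2, was called lower at 0.8 µg and read -0.9 without a call at 80 µg.

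The 16 antiviral effectors of the Ifit, Oas and related families gave 12 falls at each dose and no rise. Ifit3, which binds foreign RNA with its sister proteins, read 42.3, 88.2 and 48.5 normalised counts in the control, 3.03, 6.59 and 4.32 at 0.8 µg and 2.31, 7.75 and 6.86 at 80 µg. Both dose groups lay under the control and overlapped each other, and the falls were 3.23 ± 0.62 and 2.99 ± 0.61. Ifit3b stood at 0 in all 3 libraries at 0.8 µg against 3.09, 10.1 and 1.43 in the control, levels too near the floor of 3 counts per library for a fold. Of the 4 genes of ISG15 conjugation, Usp18, which removes ISG15 and dampens type I signalling, fell by 3.7 and 3.36. Herc6, the mouse ligase for ISG15, fell as well (-4.14 ± 0.29 and -5.95 ± 0.41), and at 80 µg it had at most 6 counts in a library.

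The 7 ADP-ribosylation and ubiquitin ligase genes all fell at 0.8 µg, and 5 of them at 80 µg. Dtx3l, a ubiquitin ligase that works with Parp9, went from a mean of 389 normalised counts in the control to 67.2 and 108 (falls of 2.53 and 1.84). Of the 4 Schlafen genes, Slfn1, Slfn5 and Slfn8 fell at both doses, and Slfn5 did so by 3.15 and 3.09. The fourth went the other way: Slfn2, required for T cells to stay quiescent, read 1180, 1350 and 1160 in the control, 2560, 2650 and 2350 at 0.8 µg and 4000, 3700 and 3720 at 80 µg. It rose by 1.03 ± 0.12 and 1.63 ± 0.12, with all 3 groups apart, although at 0.8 µg the call was lost without control replicate 3.

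Ly6a and Isg15 were the other type I-like genes above the control at 80 µg and 4 h. Ly6a, which encodes the surface antigen Sca-1, rose by 3.6 ± 0.35 and was not called at 0.8 µg (0.44 ± 0.35). Isg15, the ubiquitin-like modifier itself, read 46.4, 72 and 57.1 in the control, 89.8, 71.1 and 75.5 at 0.8 µg and 138, 139 and 113 at 80 µg. It rose by 1.1 ± 0.37 at 80 µg, and its value of 0.41 ± 0.38 at 0.8 µg was not called. Among the GTPases, Iigp1 and Gbp2 rose above the control at 80 µg, by 1.17 ± 0.37 and 1.09 ± 0.24, while Gbp9 fell by 1.25 ± 0.32. The call of Gbp9 was lost without 80 µg 4 h replicate 3 and without control replicate 2. The calls of Iigp1 and Gbp2 were both lost without 80 µg 4 h replicate 1 and without control replicate 1, and the count of 5 rises became 3 in each case. Without 80 µg 4 h replicate 1 those were 3 type I-like genes and 0 GTPases. Without control replicate 1 they were 2 type I-like genes, so that a type I-like call was lost as well, and 1 GTPase that is not among the reported rises.

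At 12 h both doses were again largely below the control. After 0.8 µg, 33 members fell and 1 rose (20.5% and 17.2% of all tested genes). After 80 µg, 39 fell and 3 rose (20.1% and 17.8%). The GTPase list gave 7 falls at 0.8 µg and 8 at 80 µg with 0 rises at either dose by DESeq2 or edgeR and 0 higher at an unadjusted p under 0.05, with medians of -1.42 and -1.66 beside -0.11 over all tested genes. The falls at both doses include Tgtp2, whose means of 1.88 and 1.77 normalised counts lay under the group floors of 2.91 and 2.62. They also include Tgtp1, at means of 3.62 and 3.99, so the fitted fold changes of these genes are uncertain. Gbp7 went from 484 ± 60.1 normalised counts in the control to 61.4 ± 9.96 and 81.4 ± 21.3, and Gbp4 went from 282 ± 41.7 to 41.2 ± 15.2 and 40.7 ± 6.88. Igtp, Irgm1, Ifi47 and Gbp3 were not called against the control at either dose at 12 h, with values from -0.9 to 0.63. At 0.8 µg Igtp (adjusted p = 5.97e-06), Ifi47 (0.00894) and Irgm1 (0.0301) passed the test and missed the fold change threshold, without which the GTPase falls were 11 at 0.8 µg and 9 at 80 µg. The share of all genes that fell without it is not given here.

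Isg15 rose by 1.63 ± 0.37 at 0.8 µg and 1.84 ± 0.37 at 80 µg at 12 h. Its libraries read 195, 198 and 175 at 0.8 µg and 225, 202 and 237 at 80 µg, all above the highest control library of 72. Ly6a (2.3 ± 0.35) and Bst2, which encodes the virus-tethering protein tetherin (1.52 ± 0.37), were the other rises at 80 µg. Samd9l, an antiviral and growth-restraining protein, fell by 2.75 ± 0.21 at 0.8 µg and by 4.44 ± 0.24 at 80 µg. Its 80 µg libraries read 21.9, 19.1 and 24.3 against 500, 529 and 451 in the control.

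At 24 h the picture was opposite. After 0.8 µg, 27 members rose and 0 fell, where 11.5% of all tested genes rose and 5.84% fell. After 80 µg, 31 members rose and 0 fell, where 12.3% rose and 7.91% fell. At an unadjusted p under 0.05, DESeq2 had 0 members lower at 0.8 µg and 1 at 80 µg, Slfn5 (-0.8 ± 0.34), and edgeR called 0 lower at both doses. The type I-like list gave 23 and 28 rises with medians of 1.13 and 1.41, and the GTPase list gave 4 and 3 rises with medians of 0.72 and 0.8, beside a median of 0 over all tested genes. With no fold change threshold the rises were 28 and 32 for the type I-like genes and 8 and 6 for the GTPases. The share of all genes that rose without that threshold is not given here.

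Mx1, a GTPase known for blocking influenza viruses and here kept with the type I-like genes, had the highest fitted fold change, on a control level near the floor. Its libraries read 7.22, 10.1 and 0 normalised counts in the control, 155, 280 and 44.4 at 0.8 µg and 153, 210 and 150 at 80 µg. It rose by 3.78 ± 0.84 and 3.87 ± 0.84, and every 24 h library lay above every control library. Ifit3b rose from its control level near the floor to means of 64.3 and 85.6 normalised counts, and Ifi44, another antiviral gene, rose by 2.96 and 3.06. Isg15 rose by 2.72 and 2.62, and Ifit3 by 1.98 and 2.14.

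Of the 16 antiviral effectors, 10 rose at 0.8 µg and 12 at 80 µg, whereas 0 of the 4 Schlafen genes were called at either dose. Trim25, a ubiquitin ligase that activates RIG-I and the member of the ISG15 conjugation list with the highest mean, read 213, 215 and 258 in the control and 425, 470 and 506 at 80 µg. It rose by 1.03 ± 0.18 there and was called in no other comparison. Of the sensors, Ddx60 and Ddx58 were not called at 24 h: Ddx60 read 0.43 ± 0.24 and 0.22 ± 0.24 against the control, and Ddx58 -0.36 ± 0.46 and -0.08 ± 0.46. The other 2 sensors rose, Ifih1 by 1.57 and 1.45 and Dhx58 at both doses. Among the GTPases, Gbp2, Gbp3 and Iigp1 rose at both doses, with Iigp1 at 570, 871 and 404 normalised counts at 0.8 µg and 510, 556 and 502 at 80 µg against 97.9, 151 and 160 in the control. Ifi47 rose by 1.11 ± 0.17 at 0.8 µg and read 0.86 ± 0.17 at 80 µg. The count of 27 at 0.8 µg became 17 without replicate 2 of that group and 31 without replicate 3, by 26 type I-like and 5 GTPase genes.

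Members called below the control at 4 h or 12 h and above it at 24 h, in comparisons that share the control samples, were the antiviral effectors Ifit1, Ifit3, Ifit3b, Isg20, Oas3, Oasl2, Rsad2, Cmpk2 and Zbp1, the sensors Ifih1 and Dhx58, and Usp18, Parp9, Parp12, Trim30a, Rnf213, Rtp4, Xaf1, Ifi27l2a, Phf11b, Gbp2 and Iigp1. The type I-like members Ifi35 and Phf11d were called in no comparison. Ifi35 had means from 80.2 to 158 normalised counts, and Phf11d did not exceed a mean of 6.09.

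**Figure D2:**
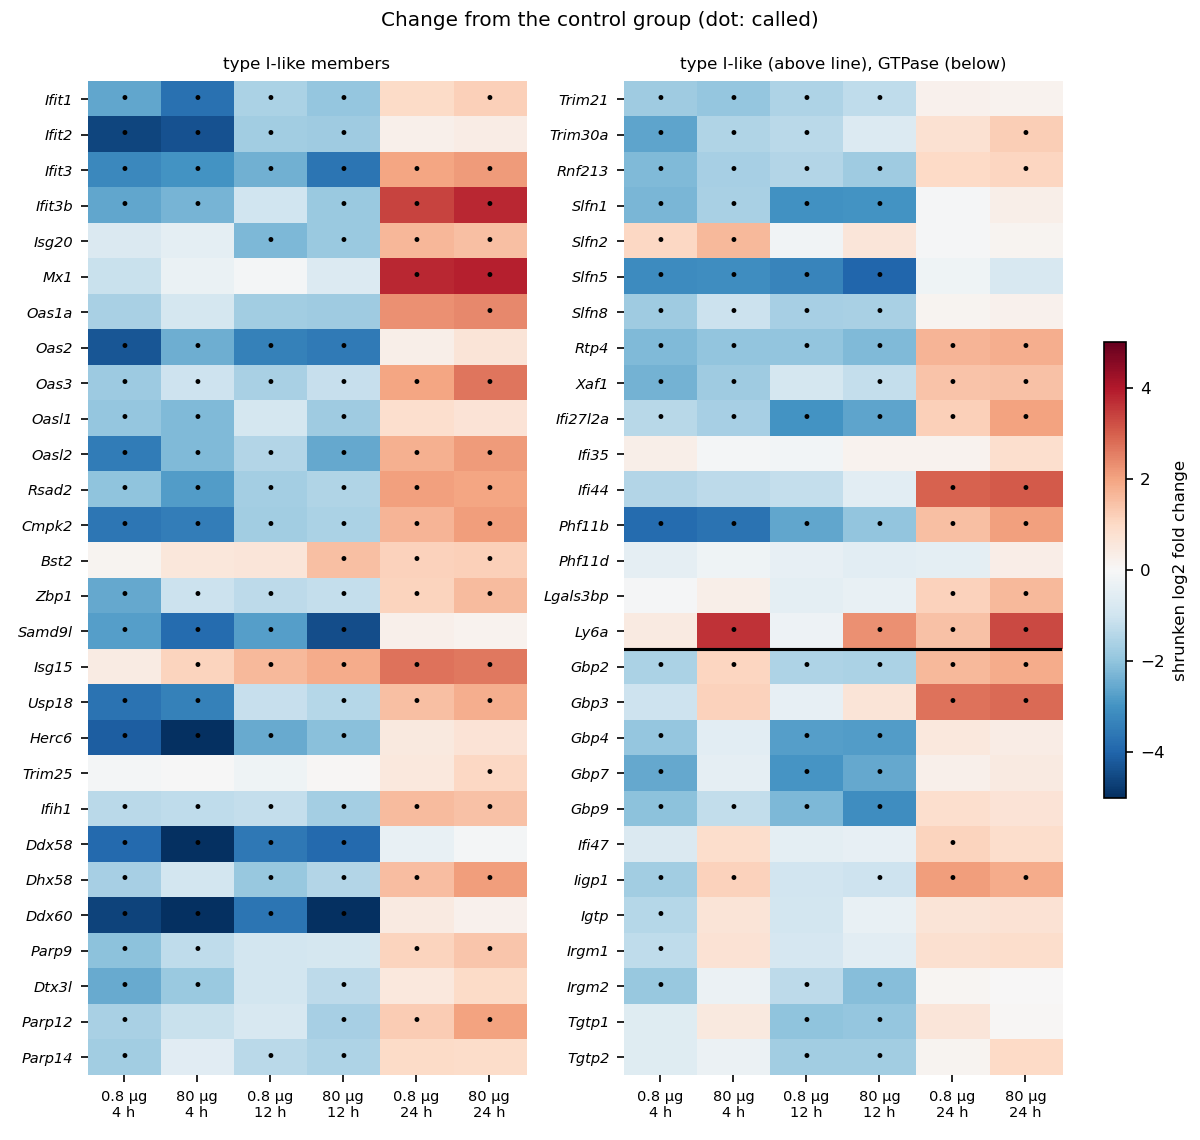
Shrunken log2 fold change of each member (rows) in each immunised group against the control (columns; colour, from blue for lower to red for higher), with a dot where the change was called. Blue fills most type I-like rows at 4 h and 12 h and red fills most at 24 h, while the GTPase rows at 80 µg and 4 h are mixed, with 7 of 12 above 0 and Gbp9 called lower (-1.25). The largest fall is that of Herc6 (-5.95) and the largest rise that of Mx1 (3.87).

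To ask how antigen dose acted at a fixed stage of Timer maturation, 80 µg was compared with 0.8 µg at each time. At 4 h the GTPases were higher at the high dose: 9 of 12 rose and 0 fell, where 3.12% of all tested genes rose and 2.74% fell. Of the 44 type I-like genes, 5 rose and 2 fell, which became 10 and 2 with no fold change threshold and 3 and 3 without 0.8 µg 4 h replicate 3. The median log2 fold change was 1.8 for the GTPases and 0.31 for the type I-like genes, beside -0.02 over all tested genes. All 12 GTPases had positive values, from 0.33 to 2.9, with 11 higher and 0 lower at an unadjusted p under 0.05 by DESeq2, and edgeR also called 9 higher and 0 lower. The shares of all genes with positive values, at an unadjusted p or with no fold change threshold are not given here. In these 6 libraries the T cell markers summed to 2060 to 2220 CPM at 0.8 µg and 1760 to 1780 at 80 µg, the B cell markers to 41.3 to 75.9 and 34.6 to 48.8, and the macrophage and monocyte markers to 29.8 to 62.6 and 20.5 to 37.8. The dendritic cell markers summed to 0.737 to 5.27 and 0.625 to 1.62. Of single markers in these lists, Cd3e, Cd3g, Cd4, Lck, Lyz2 and Ccr9 were called lower at 80 µg. Their means at 0.8 µg and 80 µg were, for example, 845 and 220 normalised counts for Cd4, 53.1 and 6.11 for Lyz2 and 10.5 and 0.609 for Ccr9. Of the 6 NK cell markers, Ncr1, Klrb1c, Klra8 and Klrk1 had means of at most 0.969 normalised counts, while Eomes fell with dose (179 and 64) and Nkg7 rose (7.23 and 62.1), both genes that activated T cells also express. Their part in the result was not tested.

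Iigp1, an Irg protein that binds to parasite vacuoles, read 41.4, 27.7 and 46.4 normalised counts at 0.8 µg and 457, 290 and 201 at 80 µg. The groups did not overlap, and replicate 1 was highest at 80 µg. The rise was 2.9 ± 0.39 on the log2 scale (7.47-fold, adjusted p = 5e-12).

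Gbp2, a guanylate-binding protein that gathers on pathogen vacuoles, read 31.3, 46.1 and 31.3 at 0.8 µg and 331, 208 and 183 at 80 µg. Again no library overlapped and replicate 1 was highest at 80 µg, and the rise was 2.69 ± 0.27 (6.44-fold, adjusted p = 1.86e-21). Gbp7, of the same family, read 101, 69.8 and 72.3 against 468, 327 and 286, a rise of 2.11 ± 0.23. Its groups were apart and kept the same order of replicates at 80 µg. Gbp4 rose by 1.39 ± 0.2 with groups of 74.1 ± 6.25 and 196 ± 23.7. Exons of Gbp4 and Gbp9 overlap on the same strand, so that reads of these genes could be shared.

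Igtp, also known as Irgm3, keeps effector Irg proteins off the cell's own membranes. It read 178, 136 and 126 at 0.8 µg and 742, 622 and 527 at 80 µg, a rise of 2.08 ± 0.19 (4.23-fold, adjusted p = 3.03e-25). Irgm1, a regulator of autophagy of the same kind, read 20.2, 25 and 21.6 against 91.4, 81.4 and 106, a rise of 2 ± 0.35. Both genes had groups well apart, and for Irgm1 replicate 3 was the highest at 80 µg. Irgm2 and Ifi47 rose by 1.6 ± 0.31 and 1.6 ± 0.17. Igtp and Irgm2, whose promoter motifs are alike, also have overlapping exons on the same strand.

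Gbp3 rose by 2.17 ± 0.62 on few counts, reading 0, 2.63 and 6.47 at 0.8 µg and 22, 26.1 and 5.14 at 80 µg. Its groups overlapped, and the call was lost without 0.8 µg replicate 1 or 80 µg replicate 2. The 3 GTPases that were not called were Gbp9 (0.83 ± 0.35), Tgtp1 (1.07 ± 0.5) and Tgtp2 (0.33 ± 0.72). Tgtp1 and Tgtp2 are near copies: 79.2% and 100% of the 50-base words at their transcript ends also occur in another gene, so their separate counts are uncertain.

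Among the type I-like genes, Ly6a had the largest effect of dose. It read 296, 626 and 276 at 0.8 µg and 4440, 3380 and 3660 at 80 µg, so that the lowest high-dose library was far above the highest low-dose one. The rise was 3.16 ± 0.35 (8.95-fold, adjusted p = 8.69e-18).

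Parp14, an ADP-ribosyltransferase, read 183, 132 and 133 against 367, 319 and 352 (1.2 ± 0.18). Trim30a, a TRIM protein that restrains Toll-like receptor signalling, read 154, 198 and 114 against 382, 364 and 276 (1.12 ± 0.19). Zbp1, a sensor of Z-form nucleic acid, read 8.08, 18.4 and 20.5 against 55.6, 50.4 and 32.6 (1.49 ± 0.36). All 3 rises came with groups that did not overlap, but Trim30a was no longer called without 0.8 µg replicate 3 (lowest value 0.94). At both doses these genes stood below their control means of 509, 967 and 98.5. Oas2, which makes the messenger that activates RNase L, read 1.01, 2.63 and 4.32 against 10.4, 19.4 and 7.72. It rose by 1.83 ± 0.61 (adjusted p = 0.0259), but the call was lost without any single library of the 0.8 µg group, without 80 µg replicate 2 and when the 6 libraries were fitted alone.

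The 2 genes that fell were Herc6 and Samd9l. Herc6 read 17.2, 13.2 and 16.2 at 0.8 µg and 3.47, 5.81 and 1.71 at 80 µg, a fall of 1.81 ± 0.45. Samd9l read 69.6, 73.8 and 69.1 against 33.6, 42.6 and 24.9, a fall of 1.05 ± 0.25. Neither gene had overlapping groups, although Samd9l was not called without 80 µg 4 h replicate 3 or in the fit of these 6 libraries alone.

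**Figure D3:**
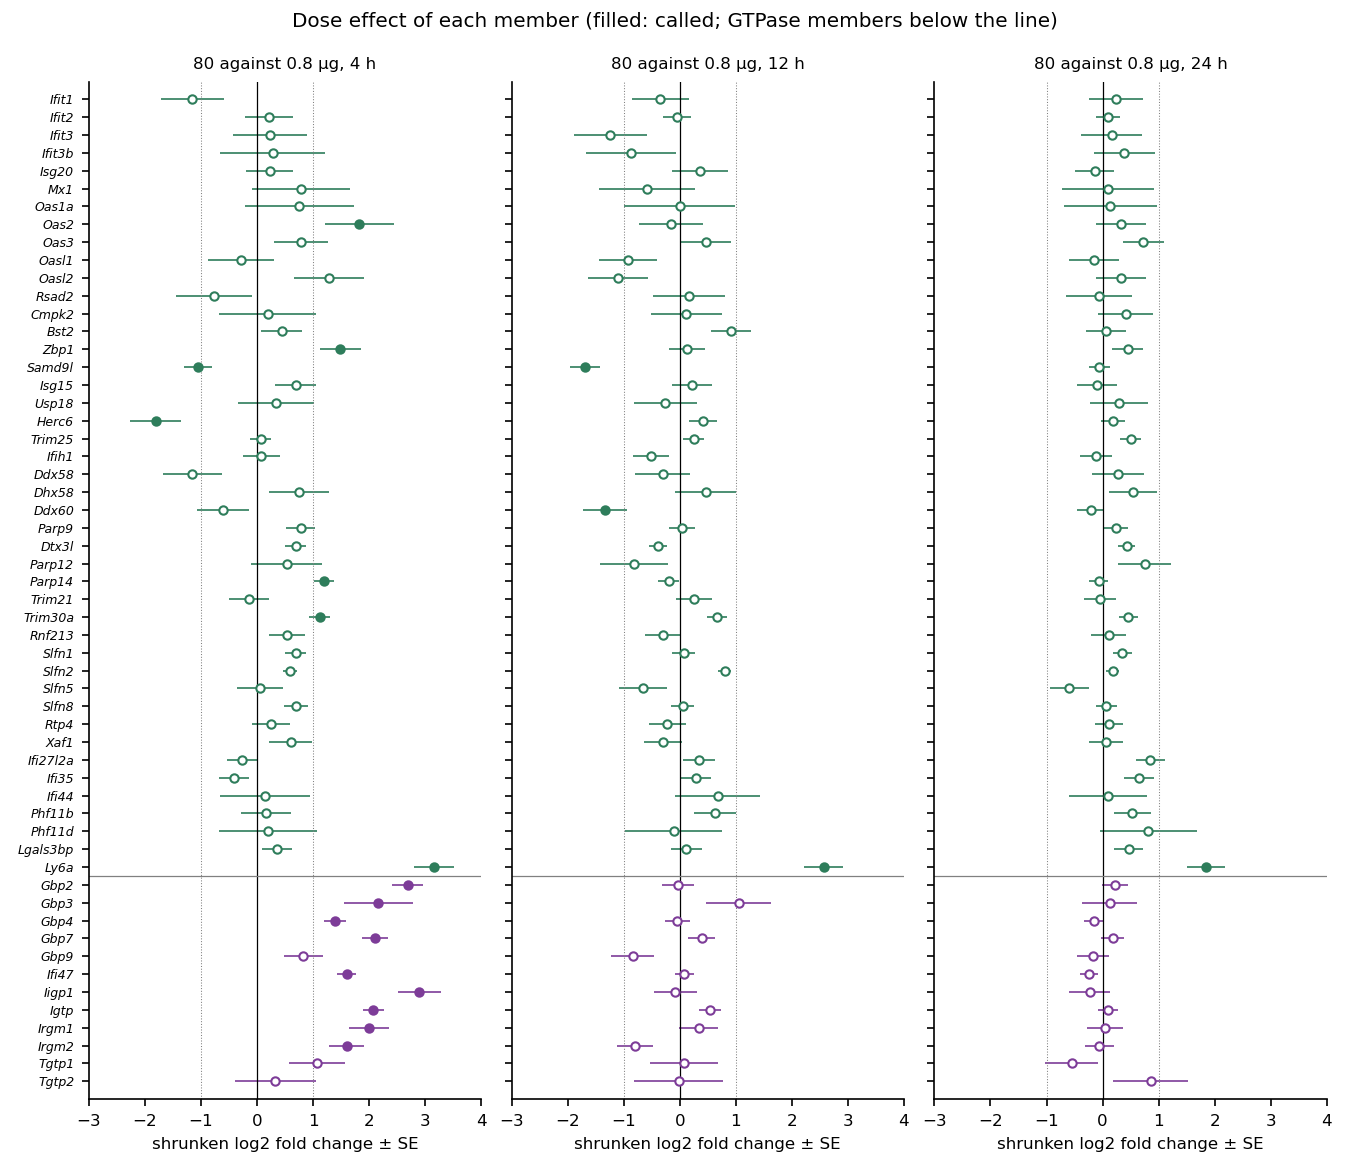
Shrunken log2 fold change of 80 µg against 0.8 µg with its SE for each member at 4 h, 12 h and 24 h (green type I-like, purple GTPase, filled where called; dotted lines at -1 and 1). At 4 h all 12 GTPase points lie above 0 and 9 are filled, whereas at 12 h and 24 h no GTPase point is filled.

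By 12 h few members differed between doses. Of the type I-like genes, 1 rose and 2 fell, and of the 12 GTPases 0 rose and 0 fell, where 1.83% of all tested genes rose and 0.96% fell. DESeq2 gave 1 GTPase higher and 2 lower at an unadjusted p under 0.05, and edgeR also called 0. The GTPase median was 0.03, and single values ran from -0.84 to 1.05, such as -0.03 ± 0.28 for Gbp2, -0.08 ± 0.38 for Iigp1 and 0.34 ± 0.35 for Irgm1. Igtp had groups that did not overlap, 217, 222 and 204 against 301, 362 and 273, but its value of 0.54 ± 0.19 was not called (adjusted p = 0.0617). Irgm2 also had groups without overlap, in the other direction, 31.4, 30.1 and 41.1 against 16.4, 17.6 and 23.3 (-0.8 ± 0.32, adjusted p = 0.127).

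Replicate 3 of the 0.8 µg 12 h group stood apart from its group. It was the lowest of the 3 libraries in 33 of 44 type I-like genes and 8 of 12 GTPases, where it was lowest in 37.1% of all genes with a mean of at least 20, and its counts differed from replicates 1 and 2 by a chi-square of 14.8 and 14.4 per degree of freedom, against 3.35 between those libraries. Without it, 2 type I-like genes rose and 3 fell between doses at 12 h and 0 GTPases were called, and against the control 23 type I-like genes and 6 GTPases fell at 0.8 µg. In replicates 1, 2 and 3 of this group the B cell markers summed to 100, 59.3 and 40.8 CPM and the macrophage and monocyte markers to 63.8, 47.4 and 41.2. The NK cell markers read 126, 124 and 98.3, the erythroid markers 102, 146 and 60.9 and the T cell markers 1680, 1630 and 1680. The part of other cells in this spread was not tested.

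Ly6a rose again at 12 h, from 251, 290 and 181 to 1470, 1680 and 1400 (2.57 ± 0.35). Samd9l read 103, 61.7 and 50.5 at 0.8 µg and 21.9, 19.1 and 24.3 at 80 µg, groups that did not overlap, and fell by 1.69 ± 0.26. Ddx60 read 22.5, 21.1 and 11.7 against 13.7, 5.14 and 1.94, with overlap, and fell by 1.34 ± 0.39. That last call was lost in 5 of 12 alternatives, among them leaving out either 0.8 µg replicate 1 or 2 or 80 µg replicate 2 or 3.

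At 24 h 1 member was called between doses, where 0.89% of all tested genes rose and 0.673% fell. Ly6a read 899, 1270 and 356 at 0.8 µg and 3150, 2680 and 3570 at 80 µg, groups without overlap, and rose by 1.84 ± 0.34. In the fit of these 6 libraries alone its value was 0.94 and below the threshold. No GTPase was called, 0 had an unadjusted p under 0.05 by DESeq2 and edgeR called 0. GTPase values ran from -0.55 to 0.86, with 0.22 ± 0.23 for Gbp2, -0.23 ± 0.37 for Iigp1 and 0.1 ± 0.18 for Igtp. The type I-like values ran from -0.59 to 1.84 with a median of 0.22, beside 0.02 over all tested genes, and 34 of 44 were positive. By DESeq2, 8 were higher and 0 lower at an unadjusted p under 0.05, a threshold at which the share of all genes is not given here. In the 0.8 µg 24 h group replicate 3 was the lowest library in 43 of these 44 genes, and replicate 2 was the highest in 44 of 44. The part of this spread in the positive values was not tested.

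**Figure D4:**
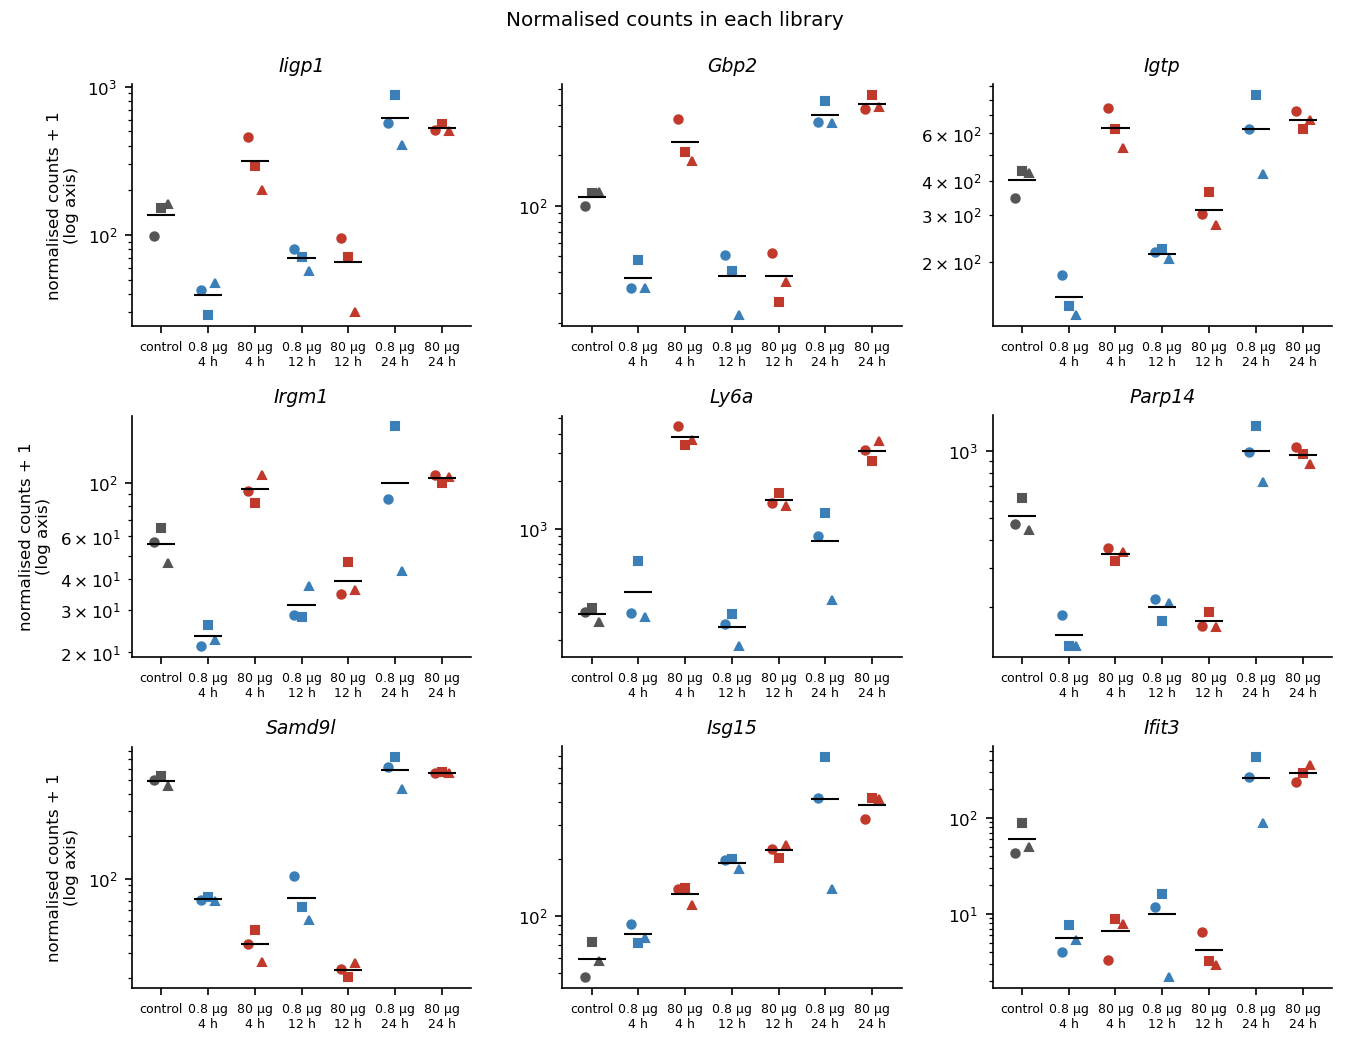
Normalised counts plus 1 on a log axis in each of the 21 libraries for 9 members (points shaped by replicate, line at the group mean; grey control, blue 0.8 µg, red 80 µg). Iigp1, Gbp2, Igtp and Irgm1 separate by dose at 4 h, Igtp also separates at 12 h by a smaller step that was not called, Ly6a separates at each time, and Isg15 is higher than control in the 12 h and 24 h groups.

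Whether the effect of dose itself differed between times was tested by a likelihood ratio test on the 18 immunised libraries. It passed for 14 members, 9 of the 12 GTPases (Gbp2, Gbp4, Gbp7, Gbp9, Ifi47, Iigp1, Igtp, Irgm1 and Irgm2) and 5 of the 44 type I-like genes (Samd9l, Herc6, Dtx3l, Parp14 and Slfn2), beside 10.4% of all tested genes. The adjusted p was 1.26e-12 for Ifi47 and 6.86e-12 for Gbp2. In these 9 GTPases the dose effect was higher at 4 h than at 12 h and 24 h. For Ly6a, whose dose effects were 3.16, 2.57 and 1.84, the test did not pass (adjusted p = 0.215). Samd9l had effects of -1.05, -1.69 and -0.06, and Herc6 had -1.81, 0.42 and 0.19. The count was 8 when replicate 1 of every group was left out and 23 without 0.8 µg 24 h replicate 3, which added 9 type I-like genes and no GTPase.

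The replicates were also unequal in the 0.8 µg 24 h group. Replicate 2 was the highest library in 44 of 44 type I-like genes and 12 of 12 GTPases, where it was highest in 33.2% of all genes with a mean of at least 20. Replicate 3 was the lowest in 43 of 44 and 11 of 12, against 39.3% of all those genes. Set against the mean of replicates 1 and 2, replicate 3 had a median ratio of 0.454 over type I-like genes and 0.674 over GTPases, against 0.983 over all genes. The ratio was under 0.5 in 25 of 44 type I-like genes (56.8%), 1 of 12 GTPases (8.33%) and 1.88% of all genes. The type I-like member Ifi44, for example, read 161, 165 and 26.8, and Isg15 read 420, 684 and 137. B cell markers read 305, 286 and 341 CPM in these 3 libraries, dendritic cell markers 36.7, 13.9 and 42.5, and erythroid markers 212, 140 and 51.1, and their part in the spread was not tested.

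**Figure D5:**
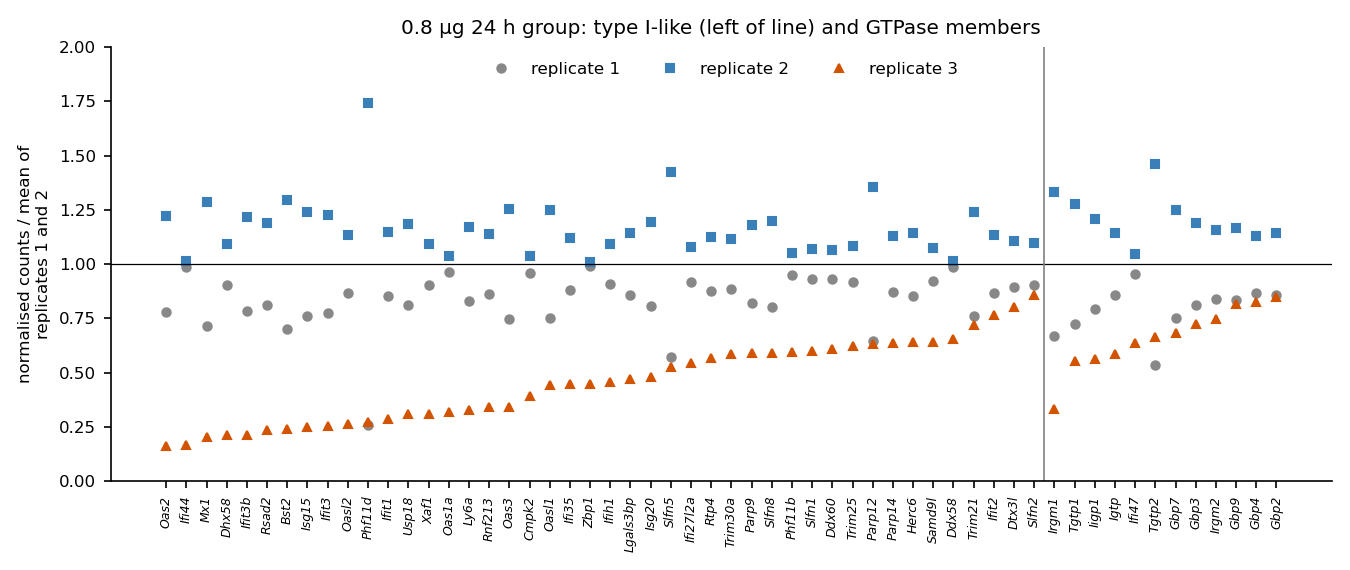
Normalised counts of each member in the 3 libraries of the 0.8 µg 24 h group, divided by the mean of replicates 1 and 2 (line at 1), with type I-like genes left and GTPases right of the vertical line. Replicate 3 (triangles) lies lowest in 43 of 44 and 11 of 12 members, with the deepest values among the type I-like genes.

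In the 80 µg 4 h group the spread had another form. Replicate 3 was lowest in 10 of 12 GTPases and 27 of 44 type I-like genes, against 33.2% of all genes with a mean of at least 20, and the order replicate 1, 2, 3 from high to low held in 6 of 12 GTPases (50%), 14 of 44 type I-like genes (31.8%) and 16.8% of all genes. Ifng, which encodes interferon gamma, read 772, 122 and 52.3 normalised counts in the same libraries. The order counted above was chosen because it is that of Ifng. Genes read in the same 3 libraries are not independent, and a link to Ifng was not tested. In these libraries the macrophage and monocyte markers summed to 37.8, 29.5 and 20.5 CPM, the NK cell markers to 56.6, 29.2 and 17.1 and the erythroid markers to 50.7, 68 and 5.31. The B cell markers read 48.8, 34.6 and 42.9 and the T cell markers 1780, 1760 and 1780. With 3 libraries no correlation was computed, and the part of other cells in this spread was not tested.

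The signalling genes around these members were read from a list of 36 genes, of which 24 had at least 10 counts. The list includes Usp18, which is also a member. Of the 12 interferon genes listed, Ifng was the one with counts, and the other 11 had 0 counts in all 21 libraries, as did the receptor gene Ifnlr1. Against the control at 4 h, 4 of these 24 rose and 13 fell at 0.8 µg (17.3% and 23.4% of all tested genes), and 5 rose and 13 fell at 80 µg (18.4% and 25.1%). At 12 h, 2 rose and 11 fell at 0.8 µg (17.2% and 20.5%), and 3 rose and 13 fell at 80 µg (17.8% and 20.1%). At 24 h, 2 rose and 2 fell at 0.8 µg (11.5% and 5.84%), and 4 rose and 1 fell at 80 µg (12.3% and 7.91%).

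Between doses, 4 of the 24 rose and 3 fell at 4 h, where 3.12% and 2.74% of all tested genes did. Ifng read 7.07, 5.27 and 0 at 0.8 µg and 772, 122 and 52.3 at 80 µg, without overlap, and rose by 5.23 ± 0.76. At 12 h the order was the other way, 110, 120 and 241 at 0.8 µg against 28.3, 29.3 and 35 at 80 µg, a difference that did not pass the test (-2.04 ± 0.73, adjusted p = 0.0893) although the groups did not overlap. Beside it at 12 h, Cd8a had means of 53.8 normalised counts at 0.8 µg and 3.84 at 80 µg, and the 2 CD8 T cell markers summed to 43.6 to 51.3 and 13.1 to 22.7 CPM. Of the 6 NK cell markers, Eomes (305 and 40.7) and Nkg7 (80 and 36.1), both also expressed by activated T cells, made up nearly all counts, whereas Ncr1, Klrb1c, Klra8 and Klrk1 had means of at most 1.57. The part of such cells in the Ifng values was not tested. In the control Ifng had 0 counts in all 3 libraries, so that the 80 µg 4 h group was at least 90.8-fold higher when set against the floor of 3 counts per library. That bound rests largely on replicate 1, and it was 25.1-fold without it, an alternative chosen after seeing the data.

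Socs1 and Socs3, which encode inhibitors of JAK and cytokine receptor signalling, also rose with dose at 4 h. Socs1 read 88.8, 257 and 131 against 912, 732 and 923 (2.35 ± 0.38), and Socs3 read 17.2, 23.7 and 10.8 against 244, 341 and 446 (4.06 ± 0.46). Neither had overlapping groups. Socs3 rose with dose at 12 h (1.55 ± 0.44) and 24 h (1.34 ± 0.44) as well, whereas Socs1 read 0.15 ± 0.38 and 0.38 ± 0.39 there.

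The transcription factors showed smaller effects of dose. Stat2 rose by 1.27 ± 0.28 at 4 h, while Irf9 (0.24 ± 0.16), Irf7 (0.87 ± 0.43) and Irf1 (0.53 ± 0.13, adjusted p = 0.00121) were not called. Against the control, Irf7, a factor that amplifies type I responses, fell by 3.14 and 2.27 at 4 h and rose by 1.09 at 80 µg and 24 h. Irf1, which drives many interferon gamma targets, read 470 ± 9.91 normalised counts at 0.8 µg and 679 ± 17.6 at 80 µg at 4 h, beside 631 ± 67.1 in the control.

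Genes that fell with dose at 4 h were the phosphatase gene Ptpn6 (SHP-1, 1.91 ± 0.13), Il10rb (1.22 ± 0.29) and the kinase gene Tyk2 (1.01 ± 0.25). Ptpn6 read 822, 768 and 1030 at 0.8 µg and 215, 251 and 230 at 80 µg, with no overlap. Ifngr2, a chain of the interferon gamma receptor, fell by 1.17 ± 0.33 at 24 h. Of this list Ifng, Il10rb, Irf1, Socs1, Socs3, Ptpn2 and Ptpn6 passed the test of a dose effect that differs between times.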

How the data were processed

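Per the labels and methods, the authors trimmed QuantSeq 3′ reads with Bbduk, aligned them with STAR 2.5.2a to mm10 (GRCm38) and counted them per Ensembl gene with HTSeq. The annotation release, strand setting and use of molecular identifiers are not given in the sources used here. The deposited counts were raw, and the deposited log2 values were the authors' regularised log values, used here to pair names with identifiers. These log2 values gave the same sign for 16 of 16, 3 of 3 and 1 of 1 members called between doses at 4 h, 12 h and 24 h.

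Counts of genes with at least 10 over 21 samples were fitted with DESeq2 1.42.0 in R 4.3.3, as 1 model with a coefficient per group. Shrinkage of fold changes used DESeq2's normal prior. The call rule was a Benjamini-Hochberg adjusted p under 0.05, over all genes, and an absolute shrunken log2 fold change above 1. Dose, time and their interaction were compared with dose and time alone by a likelihood ratio test over the 18 samples given peptide. Normalised counts were divided by DESeq2 size factors, errors are SD for levels and SE for fold changes, and CPM was scaled to library totals. Each p-value measures the spread between these samples, which the study's methods describe as replicate mice, and in a chi-square check on counts every pair of libraries in a group differed by more than sampling noise (at least 3.35 per degree of freedom). The fits were tested on simulated data.

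The members and lists were chosen with earlier results of these data known. Values in every sample were given for the called members with the largest dose effects and a mean of at least 20 normalised counts (up to 12 type I-like genes and 6 GTPases). Members called between doses at 12 h or 24 h, those with the highest mean of a role list and those with opposite calls were also named. All other named members, such as Mx1, Ifi44 and Isg15, were chosen after their values were seen. Pathway genes named were those called between doses plus Ifng, Stat2, Irf1, Irf7 and Irf9, with Ifnlr1 and Ptpn2 named beyond the rule, and 1 further gene of the rule is not reported here. Sequences are from RefSeq (GRCm38.p6) and exon overlaps from GRCm38 gene models. Alternatives were edgeR 4.0.16 with TMM, TMM size factors, no filter, no fold threshold, unshrunken values, 6-sample fits, a replicate block and leaving out libraries.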

Additional observations from a re-analysis of the deposited data

Results flagged for a closer look

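These 14 members had a dose effect that differed between 4 h, 12 h and 24 h by the likelihood ratio test. The span from the lowest to the highest of the 3 log2 dose effects was 3.13 for Iigp1, 2.72 for Gbp2, 2.4 for Irgm2, 1.97 for Igtp, 1.94 for Irgm1, 1.93 for Gbp7, 1.84 for Ifi47, 1.67 for Gbp9 and 1.55 for Gbp4 among the GTPases. Among the type I-like genes it was 2.23 for Herc6, 1.62 for Samd9l, 1.4 for Parp14, 1.08 for Dtx3l and 0.62 for Slfn2. Gbp9 was called between doses at no single time (0.83 at 4 h and -0.84 at 12 h), nor were Dtx3l (0.69 and -0.39) or Slfn2 (0.59 and 0.8). Groups of 3 samples were not tested for single outlying libraries.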

How the results depend on the processing

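Of 256 alternative values of the counts of called members and of the summed levels, 233 stayed within 1.5 times or 1 SD and 23 moved further. Of 240 alternative values for the 20 called dose effects, 224 kept the call, 16 lost it and 0 reversed. With no fold change threshold, members higher with dose numbered 3 at 12 h and 2 at 24 h, members above the control at 80 µg and 4 h numbered 8, and members below it at 80 µg and 24 h numbered 1. In fits of the 6 libraries compared, members lower with dose numbered 1 at 4 h and 1 at 12 h, and members higher at 24 h numbered 0, where fewer samples carry the estimate of spread. Leaving out 1 library at a time gave 1 to 3 members lower with dose at 4 h, 1 to 2 higher and 1 to 3 lower at 12 h, and 1 to 3 higher at 24 h (3 without 0.8 µg 24 h replicate 2). Against the control it gave 0 to 1 higher at 0.8 µg and 4 h (0 without control replicate 3), 3 to 7 higher at 80 µg and 4 h, and 17 to 31 higher at 0.8 µg and 24 h. The test of a dose effect that differs between times gave 8 to 19 members without replicate 1, 2 or 3 of every group, and 23 without 0.8 µg 24 h replicate 3, an alternative chosen after seeing the data. With TMM library sizes the summed level was 6080 CPM for type I-like genes at 80 µg and 24 h, in place of 5530, and 207 and 1100 CPM for GTPases at 0.8 µg 4 h and 80 µg 24 h, in place of 199 and 995. The type I-like sum at 80 µg and 4 h moved from under the control (2780 against 2840) to above it (2920 against 2620). The cause of these shifts was not tested.

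By correlated deviations, replicate numbers did not pair the samples. Of same-numbered pairs, 15 of 63 were over 0.1, and the median was -0.01, as for other-numbered pairs. Some marker sums did follow the number. Erythroid markers were lowest in replicate 3 in every group except 80 µg 24 h. B cell markers without Ighm were highest in replicate 1 in every group except 0.8 µg 24 h. Whether the number marks a shared sorting step was not tested. With the replicate number as a block, the counts moved by at most 1, to 32 lower at 0.8 µg 12 h, 26 higher at 0.8 µg 24 h and 30 higher at 80 µg 24 h, and all 14 members of the test between times were kept. Depth limits the low members: 3 counts correspond to 2.45 to 3.47 normalised counts as group means, and at 0.8 µg and 4 h the means of Cmpk2 (0.336), Mx1 (1.57), Oasl2 (2.27), Oas2 (2.65), Usp18 (2.79), Ifi44 (2.81), Phf11d (2.96) and Gbp3 (3.04) lay under the 3.41 of that group, as did Ifit3b and Oas1a at 0, so that their fitted fold changes are uncertain.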
